A study of Mus musculus with 30 samples.

Results

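The knockout of Gaa was compared between skeletal muscle and spinal cord of the same mice, gene by gene. Gaa encodes the lysosomal acid alpha-glucosidase, whose loss causes Pompe disease in humans. The quantity examined was a difference of differences: the KO effect in quadriceps (KO minus WT) minus the KO effect in whole spinal cord (KO minus WT). It was computed for all 13187 genes measured in both tissues, of 17420 in the deposited table, from 12 of the 30 libraries of the study. The groups were Gaa KO mice on the mixed B6;129;DBA2/J background (animals numbered 6, 7 and 8) and Gaa WT mice on that background (animals 1, 3 and 4), 3 each. Both groups carry the Ltbp4 allele labelled Ltbp4D36/D36, so Ltbp4 genotype does not separate KO from WT. All 6 were untreated males aged 4 months, and each gave a quadriceps library and a cord library. KO and WT mice on the B6;129 background, 3 each and also untreated males of that age, carry no such label for Ltbp4 and served as the nearest comparison. The labels do not say how Gaa was disrupted or whether KO and WT mice were littermates.

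As background, acid alpha-glucosidase breaks down the glycogen that reaches lysosomes, and without it lysosomes fill with glycogen. In skeletal muscle the fibres store glycogen as fuel and are known for swollen lysosomes and built-up autophagic material in this disease. In the spinal cord, neurons including motor neurons, and glia, store glycogen too, and the surrounding astrocytes and microglia are the cells known to react to neuronal damage.

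Values are normalized signals, that is reads per gene scaled to library size, not to gene length, so levels are set only against the same gene. Effects are differences of mean log2(signal + 0.5), which understates changes of very low genes. A gene was called where the adjusted p (limma, Benjamini-Hochberg over all 13187 genes) was under 0.05. The 12 libraries held 1.69e+07 to 3.03e+07 reads, and 3 reads were worth a signal of 0.154 to 0.207 in quadriceps and 0.0865 to 0.111 in cord. Mitochondrial genes took 14.7% to 18.3% of reads in KO quadriceps, 16.8% to 18.0% in WT quadriceps, 14.4% to 17.1% in KO cord and 13.2% to 17.0% in WT cord. Each tissue carried its own markers, with 14 skeletal muscle markers summing to 168000 to 198000 in KO quadriceps and 240000 to 273000 in WT quadriceps. In cord the same markers stood at 0.168%, 0.0731% and 0.22% of their level in the same animal's muscle in KO animals 6, 7 and 8, and at 0.204%, 0.809% and 0.0442% in WT animals 1, 3 and 4. For 261 genes the muscle RNA could make up over 25% of the signal in at least 1 cord library, and 58 of them were called. Without these 261 genes 4219 were called. Fewer cells of a type and less RNA per cell cannot be told apart in these bulk samples.

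The KO effect differed between the tissues for 4255 of the 13187 genes (32.3%). It was higher in quadriceps than in cord for 1788 (13.6%) and lower in quadriceps for 2467 (18.7%). The difference passed 2-fold for 942 called genes, 478 higher and 464 lower in quadriceps. Per-animal quadriceps-to-cord ratios of KO and WT mice did not overlap for 3880 of the called genes (91.2%), against 41.1% of all genes tested. The split by direction depended on scaling: 2019 were higher and 1994 lower after quantile normalization, and 2330 higher and 2153 lower with DESeq2.

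Most of the differences were effects in muscle with a smaller effect in cord. The absolute effect was larger in quadriceps for 3829 of the 4255 genes (90%) and larger in cord for 426. Over all genes tested, the median absolute KO effect was 0.31 in quadriceps and 0.126 in cord on the log2 scale. In quadriceps 6440 genes were called (48.8%), 2847 up (21.6%) and 3593 down (27.2%). The quadriceps count was 5244 when each tissue had its own spread per gene, and 3847 with the libraries of the compared groups alone. In cord 549 were called (4.16%), 400 up (3.03%) and 149 down (1.13%), and this count rested on how the spread was estimated. It was 1781 when each tissue had its own spread per gene, 1269 with DESeq2, and 185, 249 and 354 without WT cord replicate 4, KO cord replicate 6 or KO cord replicate 8. Of the 343 genes called in both tissues, 263 moved the same way (1.99% of all genes; 174 up, 89 down) and 80 moved in opposite ways (0.607%; 67 down in quadriceps and up in cord, 13 the reverse). With a spread for each tissue these 2 counts were 572 and 235. Effects in the 2 tissues correlated weakly across genes (Pearson r = 0.289, Spearman rho = 0.144), where genes are not independent replicates and both tissues share their animals.

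**Figure D1:**
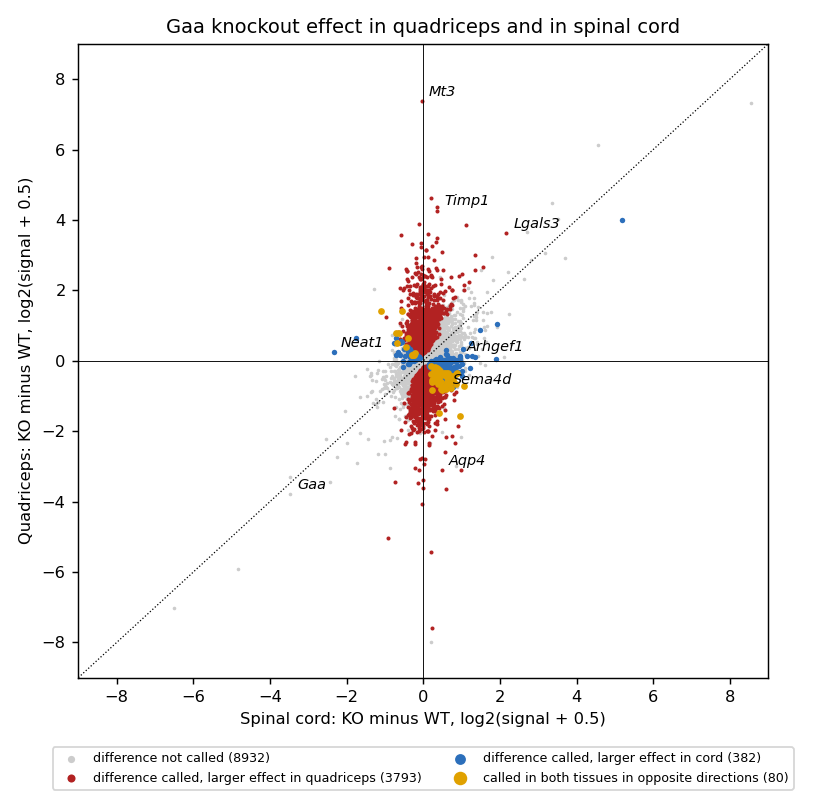
KO minus WT difference of each of the 13187 genes in quadriceps (vertical axis) against that in spinal cord (horizontal axis), both in log2(signal + 0.5), with the line of equal effects dotted. The called genes form a cloud along the vertical axis, while Gaa lies near the line and Neat1 left of the cloud, with an effect in cord of -2.34 ± 0.30.

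The effects also varied with transcript length, which touches every group of long or short genes described here. With genes split into 5 bins by the longest annotated transcript, the median effect in quadriceps was 0.13 for the shortest bin (87 to 1907 bases) and -0.203 for the longest (5308 to 123179 bases). In cord the corresponding medians were -0.0298 and 0.0325. In the shortest bin 21.8% of genes were called higher and 6.87% lower in quadriceps than in cord, and in the longest bin 8.12% and 33.8%. The trend was present in each KO quadriceps library: against the WT mean, the longest bin stood -0.313, -0.246 and -0.429 from the shortest in KO animals 6, 7 and 8, against 0.0162, 0.0577 and -0.082 in WT animals 1, 3 and 4. When the trend was taken out of each library, a step added after the data were seen, 3784 of 13170 genes were called, 1866 higher and 1918 lower. Of those, 3238 were among the 4255 with the same direction. Counts with the trend removed are given beside the lists where a count in 1 direction moved by over 1.5 times, and for some others.

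**Figure D2:**
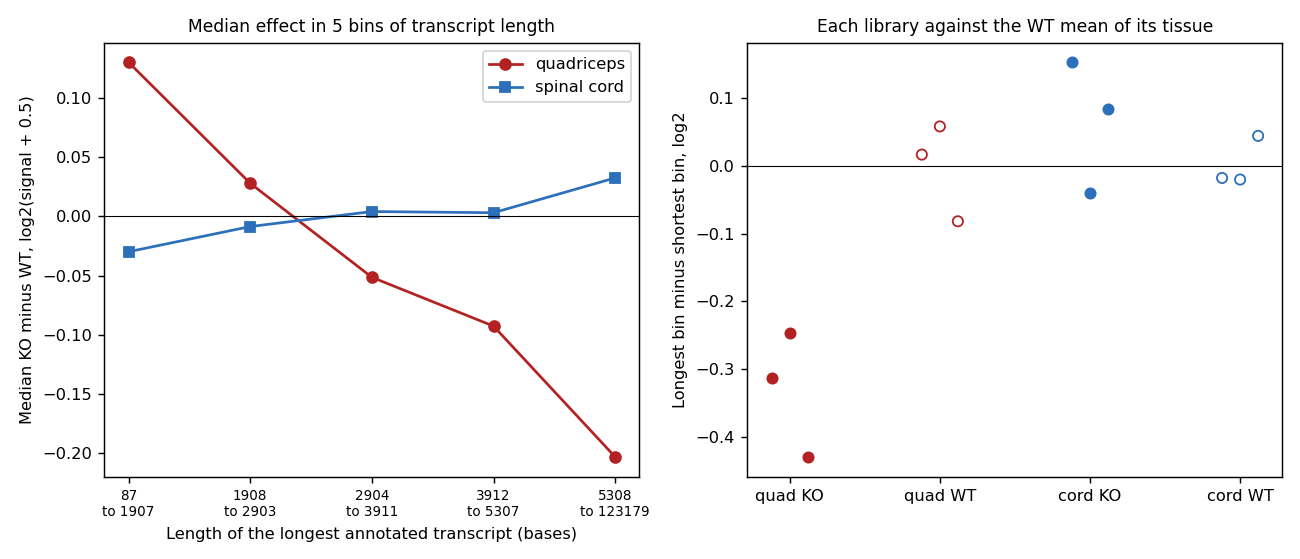
Left, median KO minus WT difference (log2) in 5 equal bins of transcript length for quadriceps and cord. Right, for each of the 12 libraries, the median of the longest bin minus that of the shortest, taken against the WT mean of the tissue. The 3 KO quadriceps libraries sit between -0.429 and -0.246, below the other 9.

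Gaa itself fell in both tissues. Gaa (chr11:119267887-119285454, GRCm38, plus strand) had 11.6, 16.5 and 16.7 in KO quadriceps, against 214, 169 and 254 in WT quadriceps, and 13.4, 12.1 and 10.6 in KO cord, against 131, 139 and 144 in WT cord. KO and WT did not overlap in either tissue. The effect was -3.79 ± 0.13 in quadriceps and -3.47 ± 0.13 in cord, and the difference between tissues was -0.32 ± 0.18 (SE, adjusted p = 0.18), which did not pass the threshold. Among the alternatives run, it passed only without WT quadriceps replicate 3, at -0.47 (adjusted p = 0.036, limma).

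Ltbp4, a latent TGF-beta binding protein that is known as a modifier of muscular dystrophy in mice, gave opposite orders of KO and WT in muscle and cord, although all 6 mice carry the same labelled allele. Its signal was 29.9, 42.3 and 31.2 in KO quadriceps, against 71.3, 87.2 and 58.1 in WT quadriceps, and 20.6, 16.4 and 14.5 in KO cord, against 11.6, 13.6 and 10.6 in WT cord. The groups did not overlap in either tissue. The effect was -1.05 ± 0.16 in quadriceps and 0.50 ± 0.16 in cord, where the cord value alone missed the threshold (adjusted p = 0.084), and the difference was -1.55 ± 0.23 (SE, adjusted p = 1.8e-05).

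**Figure D3:**
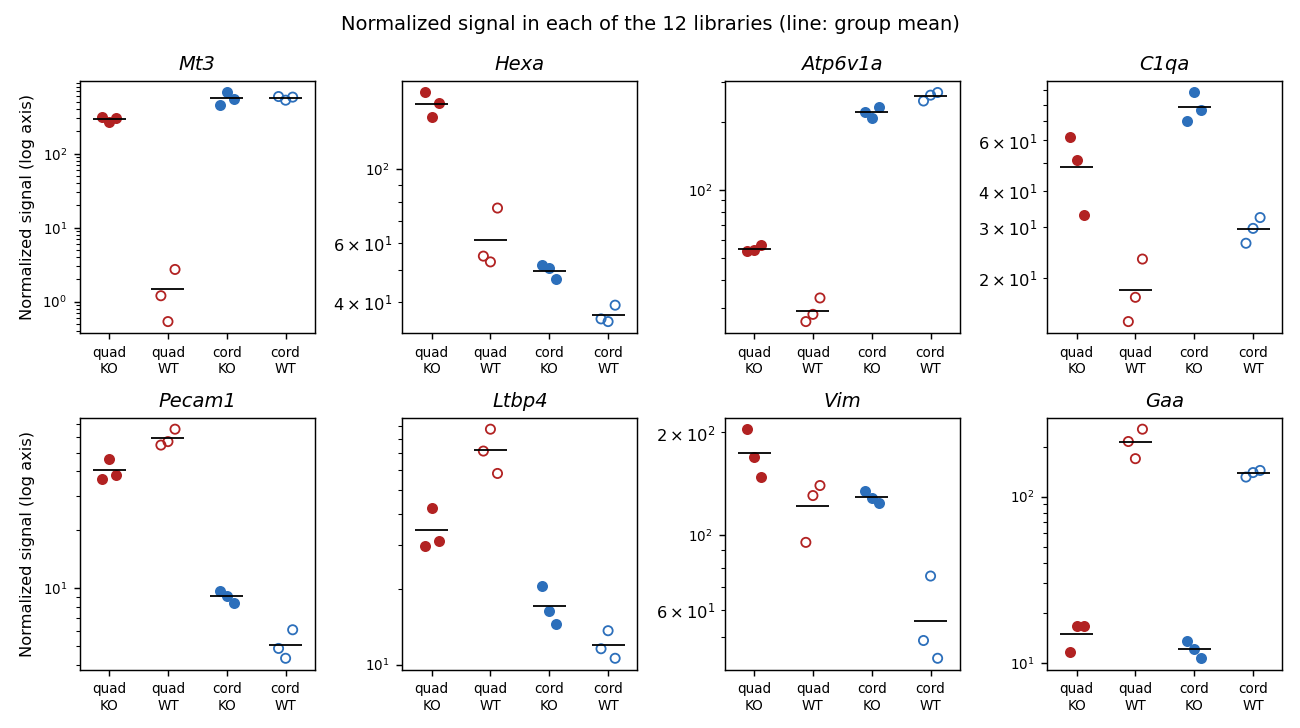
Normalized signal (log axis) of 8 genes in each library, with a line at the mean of the 3 libraries. Filled points are KO and open points WT, red quadriceps and blue spinal cord. Mt3 of WT quadriceps stands far below the other 3 groups, and Pecam1 and Ltbp4 lie in opposite order in the 2 tissues.

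Mt3, one of the metallothioneins, small proteins that bind zinc and copper, gave the largest difference among the genes tested. It is known as the brain form and had 314, 272 and 307 in KO quadriceps, against 1.20, 0.538 and 2.73 in WT quadriceps, while cord had high levels in both genotypes, with 453, 673 and 556 in KO cord, against 594, 529.7 and 583 in WT cord. KO muscle stood far above WT muscle and below cord, and the KO and WT cord ranges overlapped. The difference was 7.42 ± 0.39 (SE, adjusted p = 6.9e-12). Mt1 had 303, 258 and 441 in KO quadriceps, against 67.7, 12.6 and 162 in WT quadriceps, and 476, 687 and 627 in KO cord, against 467, 379 and 573 in WT cord, a difference of 2.29 ± 0.70 (SE, adjusted p = 0.015). Mt2 had 368, 334 and 497 in KO quadriceps, against 40.5, 6.89 and 139.9 in WT quadriceps, and 208, 347 and 315 in KO cord, against 245, 147 and 307 in WT cord, a difference of 3.15 ± 0.82 (SE, adjusted p = 0.0048). WT muscle libraries spread over more than the KO ones for both, with replicate 3 lowest and replicate 4 highest, yet no WT muscle value reached a KO one. Of 10 metallothionein and zinc transport genes tested, 4 were higher in quadriceps and 1 lower, where 13.6% and 18.7% of all genes were. With the length trend removed the counts were 4 and 0. Beside Mt1, Mt2 and Mt3, the zinc exporter Slc30a1 was higher at 0.42, and the metal-sensing factor Mtf1 was lower at -0.32. The call did not hold for Slc30a1 when any of 10 libraries was left out (adjusted p up to 0.11) and for Mtf1 when any of 8 libraries was left out (adjusted p up to 0.11). Mt1 and Mt2 lost the call with only the 12 libraries compared (adjusted p up to 0.097). Slc30a1 lost the call with no filter or a spread per tissue (adjusted p up to 0.056). Mtf1 lost the call with DESeq2, median scaling, only the 12 libraries compared, quantile scaling or the length trend removed (adjusted p up to 0.61). The difference for Mt1 was 1.29 without WT quadriceps replicate 3, and for Mt2 2.03 without WT quadriceps replicate 3, and for Mtf1 -0.09 with the length trend removed.

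The promoter windows of the 3 metallothionein genes are shown because they move together and metallothionein genes are textbook targets of Mtf1. Its core element TGCGCNC and the related TGCACNC were searched on both strands of the 300 bases around each start (250 before, 50 after) in RefSeq windows of GRCm38.p6. The windows, all on the plus strand, are chr8:94178839-94179138 for Mt1, chr8:94172368-94172667 for Mt2 and chr8:94152357-94152656 for Mt3. Capitals mark either element on either strand.
Mt1: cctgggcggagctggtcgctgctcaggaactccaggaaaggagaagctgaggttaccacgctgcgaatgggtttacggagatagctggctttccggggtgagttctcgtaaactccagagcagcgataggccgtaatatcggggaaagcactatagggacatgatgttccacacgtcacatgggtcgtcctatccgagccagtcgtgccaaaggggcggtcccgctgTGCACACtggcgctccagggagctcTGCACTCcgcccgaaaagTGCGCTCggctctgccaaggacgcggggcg
Mt2: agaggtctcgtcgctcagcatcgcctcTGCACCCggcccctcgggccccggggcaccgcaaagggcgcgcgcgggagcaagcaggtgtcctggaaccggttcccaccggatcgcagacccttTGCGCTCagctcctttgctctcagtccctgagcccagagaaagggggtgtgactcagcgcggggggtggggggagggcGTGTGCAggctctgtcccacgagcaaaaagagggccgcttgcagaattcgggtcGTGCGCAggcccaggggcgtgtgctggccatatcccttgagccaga
Mt3: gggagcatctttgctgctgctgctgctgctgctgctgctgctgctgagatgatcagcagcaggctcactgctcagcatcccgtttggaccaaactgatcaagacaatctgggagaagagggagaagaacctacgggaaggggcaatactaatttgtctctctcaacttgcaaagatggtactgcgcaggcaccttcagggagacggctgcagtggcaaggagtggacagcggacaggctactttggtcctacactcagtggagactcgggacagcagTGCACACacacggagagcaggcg
The Mt1 window held 1 TGCGCNC and 2 TGCACNC, that of Mt2 held 2 and 2, and that of Mt3 held 0 and 1. Among all 32851 promoter windows 15.4% held TGCGCNC and 12.6% held TGCACNC, and among the 9780 windows of tested genes 28% and 12.4%. The elements differ in 1 letter, so no stretch on 1 strand counts as both, and a match is a description of the letters only.

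The other large differences with a higher KO effect in muscle were led by genes low in WT muscle. Ahnak2, a giant scaffold protein, had 210.1, 212 and 198 in KO quadriceps, against 5.62, 8.33 and 10.5 in WT quadriceps, and 45.7, 45.2 and 59.2 in KO cord, against 43.7, 43.02 and 41.6 in WT cord, a difference of 4.41 ± 0.22 (SE, adjusted p = 3.5e-12). Dusp4, a phosphatase of MAP kinases, had 21.3, 16.4 and 17.8 in KO quadriceps, against 0.747, 1.72 and 0.979 in WT quadriceps, and 0.676, 1.13 and 1.49 in KO cord, against 1.40, 2.06 and 2.16 in WT cord, a difference of 4.15 ± 0.32 (SE, adjusted p = 4.4e-09). KO and WT muscle were far apart for both, while the KO and WT cord ranges overlapped for Dusp4 and lay close together without overlap for Ahnak2. Serpinb1a, an inhibitor of neutrophil proteases, had 113, 75.4 and 104 in KO quadriceps, against 3.22, 5.61 and 4.05 in WT quadriceps, and a difference of 3.99 ± 0.31 (SE, adjusted p = 4.2e-09). Timp1, an inhibitor of matrix metalloproteinases, had 37.3, 20.7 and 30.7 in KO quadriceps, against 0.422, 0.641 and 2.83 in WT quadriceps, and a difference of 3.92 ± 0.50 (SE, adjusted p = 2.9e-06). Lingo1, a membrane protein known from neurons, had 10.7, 7.24 and 7.88 in KO quadriceps, against 0.487, 0.333 and 0.397 in WT quadriceps, and 16.3, 14.4 and 16.4 in KO cord, against 17.98, 19.6 and 19.9 in WT cord. Its muscle level in KO mice stayed below its cord level, and the difference was 3.60 ± 0.22 (SE, adjusted p = 1.6e-10). The rest of the 10 largest were Msln at 4.01, Myl4 at 3.49, Prune2 at 3.40 and Dusp2 at 3.28. Msln, a surface protein of mesothelial cells, is among the genes whose cord signal cannot be told apart from muscle RNA, the amount estimated from muscle reaching 207% of its signal in a cord library. The difference for Lingo1 was 2.39 with a pseudocount of 2, and for Msln 2.64 with a pseudocount of 2.

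Among genes whose quadriceps to cord ratios did not overlap between KO and WT animals, with pseudogenes and predicted genes passed over, the 10 with the lowest KO effect in quadriceps against cord included Aqp4, Dkk3 and Kcnab1. Aqp4, the water channel of fast muscle fibres and of astrocyte endfeet, had 2.31, 5.77 and 4.52 in KO quadriceps, against 50.9, 46.05 and 23.4 in WT quadriceps. Its cord signal was 286, 320.0 and 319 in KO cord, against 227, 213 and 219 in WT cord. KO muscle lay below and KO cord above its WT, and the difference was -3.60 ± 0.34 (SE, adjusted p = 5.2e-08), although the cord effect missed the threshold (adjusted p = 0.28). Dkk3, a secreted protein of the Dickkopf family, had 1.76, 3.79 and 1.29 in KO quadriceps, against 54.6, 23.5 and 59.7 in WT quadriceps, with no overlap, and a difference of -4.01 ± 0.38 (SE, adjusted p = 5.7e-08). Kcnab1, a subunit of potassium channels, had 0.794, 0.914 and 1.11 in KO quadriceps, against 26.4, 10.6 and 13.1 in WT quadriceps, and a difference of -3.34 ± 0.30 (SE, adjusted p = 3.5e-08). In cord both stayed close to WT, with effects of -0.04 ± 0.27 for Dkk3 and -0.14 ± 0.22 for Kcnab1. Neto2, an auxiliary subunit of kainate receptors, differed by -2.99, Gdap1, a protein of the outer mitochondrial membrane, by -2.82, and the Golgi protein Golm1 by -2.78. Smox, spermine oxidase, had 85.4, 84.4 and 156 in KO quadriceps, against 618, 471 and 1324 in WT quadriceps, and a difference of -2.72 ± 0.38 (SE, adjusted p = 8.6e-06). Ighm, the heavy chain of IgM made by B cells, differed by -2.73, and an entry for Crybg3 that has no position in the annotation by -2.83. Amd2, at -4.13, is a near copy of Amd1, so reads may be split between them and its value is uncertain. Those passed over numbered 11. The difference for Crybg3 was -4.68 with DESeq2, -4.68 with edgeR and -1.55 with a pseudocount of 2.

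**Figure D4:**
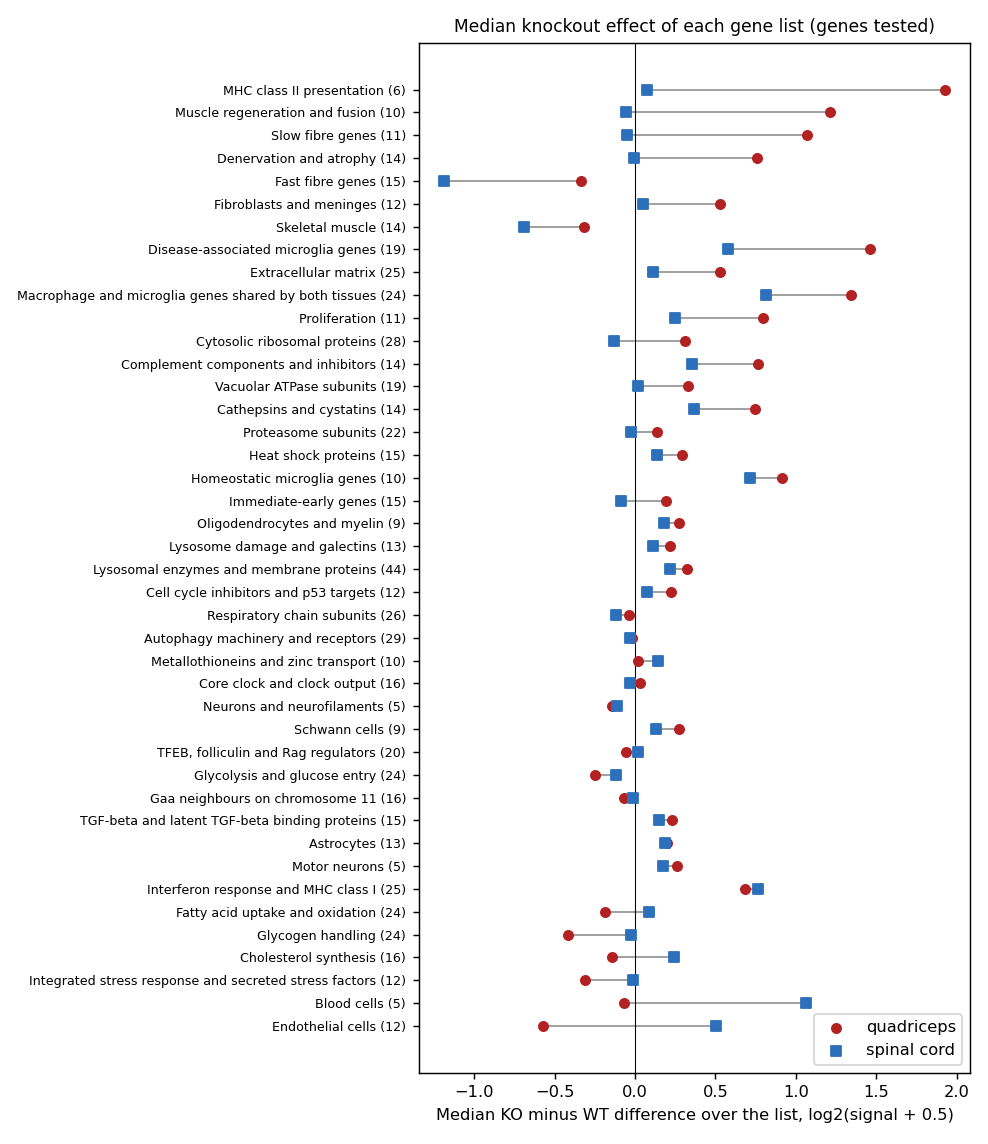
Median KO minus WT difference (log2) over the tested members of each gene list with 5 or more of them, for quadriceps (circles) and cord (squares), ordered by the median difference between tissues. The MHC class II list stands at the top with medians of 1.93 and 0.0739, and the endothelial list at the bottom with -0.57 and 0.505.

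More lysosomal genes rose than fell in both tissues, and some rose further in muscle. Of 44 tested lysosomal enzymes and membrane proteins, 25 were up and 3 down in quadriceps and 12 up and 1 down in cord. Of these, 10 were called in the same direction in both. Of all genes, 21.6% were up and 27.2% down in quadriceps, and 3.03% up and 1.13% down in cord. The tissue difference was called higher in quadriceps for 10 of the 44 and lower for 3, against 13.6% and 18.7% of all genes. After quantile normalization these counts were 11 and 0. The median effect was 0.323 in quadriceps and 0.215 in cord, against -0.0373 and 0.000723 over all genes. Hexa, the alpha subunit of beta-hexosaminidase, had 169.7, 143 and 158 in KO quadriceps, against 54.96, 52.8 and 76.5 in WT quadriceps, and 51.5, 50.5 and 47.01 in KO cord, against 35.7, 35.01 and 39.2 in WT cord. KO stood above WT in both tissues without overlap, and the difference was 0.93 ± 0.14 (SE, adjusted p = 2.3e-05). The lysosomal tetraspanin Cd63 also rose in both, by 1.46 ± 0.10 in quadriceps and 0.69 ± 0.10 in cord, with a difference of 0.77 ± 0.14 (SE, adjusted p = 0.00015). Gm2a, the activator that presents GM2 ganglioside to hexosaminidase, rose in muscle only by the calls (1.01 ± 0.10 in quadriceps and 0.04 ± 0.10 in cord), and the difference was 0.98 ± 0.15 (SE, adjusted p = 2.5e-05). The alpha-mannosidase Man2b1 (0.67 ± 0.15 in quadriceps and 0.94 ± 0.15 in cord) and progranulin Grn (0.72 ± 0.14 in quadriceps and 0.90 ± 0.14 in cord) rose in both with no difference called. Among those lower in quadriceps were Smpd1, acid sphingomyelinase, at -0.22, and the lysosomal membrane protein Scarb2 at -0.29 (adjusted p = 0.022, and 0.1 with the animal as a block). Calls were lost for Scarb2 without WT quadriceps replicate 4 or WT cord replicate 4 (adjusted p up to 0.068). Smpd1 lost the call with only the 12 libraries compared or quantile scaling (adjusted p up to 0.066). Scarb2 lost the call with median scaling, only the 12 libraries compared, quantile scaling or the length trend removed (adjusted p up to 0.36). The difference for Smpd1 was -0.15 with quantile scaling, and for Scarb2 -0.18 with quantile scaling, -0.17 with the length trend removed and -0.18 without WT quadriceps replicate 4.

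Among 14 cathepsins and their inhibitors, those called with the higher effect in muscle were mostly cysteine proteases. The tissue difference was called higher in quadriceps for 6 and lower for 2, where 13.6% and 18.7% of all genes were. Against WT, 11 were up and 1 down in quadriceps, where 21.6% and 27.2% of all genes were. In cord 8 were up, where 3.03% of all genes were. Lgmn, legumain, an asparaginyl endopeptidase, had 159.6, 147 and 130.3 in KO quadriceps, against 34.5, 35.1 and 38.3 in WT quadriceps, and 136, 149.6 and 150.5 in KO cord, against 133, 129 and 132 in WT cord. The difference was 1.85 ± 0.15 (SE, adjusted p = 6.0e-09). Ctsk differed by 1.48, Ctss by 1.23, Ctsl by 0.73, Ctsb by 0.34 and the inhibitor cystatin B (Cstb) by 1.19. Ctss, a protease of macrophages and microglia, was called in both tissues, with 2.57 ± 0.23 in quadriceps and 1.34 ± 0.23 in cord. Ctsd, the aspartyl protease, rose in both (0.45 ± 0.11 in quadriceps and 0.72 ± 0.11 in cord) and the difference of -0.26 ± 0.15 (SE, adjusted p = 0.19) was not called. Ctso at -0.47 and the inhibitor cystatin C (Cst3) at -0.50 were lower in quadriceps, and Cst3 was called in cord alone (-0.06 ± 0.11 in quadriceps and 0.44 ± 0.11 in cord). No difference was called for Ctso when any of 3 libraries was left out (adjusted p up to 0.061) and for Cst3 without WT quadriceps replicate 4 (adjusted p = 0.051). Ctso lost the call with only the 12 libraries compared or the length trend removed and the animal as a block (adjusted p up to 0.066). Cst3 lost the call with only the 12 libraries compared or quantile scaling (adjusted p up to 0.099). The difference for Ctsb was 0.54 with quantile scaling, and for Cst3 -0.31 with quantile scaling. With the animal as a block, Ctsb lost the call without animal 1, 3, 4, 6 or 8 (adjusted p up to 0.1, limma).

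Most of the called genes of the proton pump of the lysosome had the higher effect in muscle. Of 19 vacuolar ATPase subunits and accessory proteins tested, 10 had a higher effect in quadriceps and 1 a lower one, where 13.6% and 18.7% of all genes did. Against WT, 14 were up and 1 down in quadriceps, where 21.6% and 27.2% of all genes were. In cord 1 was up, where 3.03% of all genes were. Median effects of the 19 were 0.332 in quadriceps and 0.0169 in cord. With the length trend removed 9 were higher and 0 lower, and with the animal as a block 8 and 0. Atp6v1a, a catalytic subunit, had 53.5, 54.2 and 57.2 in KO quadriceps, against 26.2, 28.2 and 33.3 in WT quadriceps, and 222, 207 and 233 in KO cord, against 247, 262 and 269.7 in WT cord. KO muscle lay above and KO cord below its WT, and the difference was 1.14 ± 0.12 (SE, adjusted p = 2.3e-07). The accessory protein Atp6ap2 differed by 0.87, Atp6v1h by 0.69 and Atp6v1f by 0.47. Tcirg1, the a3 subunit known from osteoclasts and macrophages, was the member up in both tissues (0.61 ± 0.14 in quadriceps and 0.86 ± 0.14 in cord), and its difference was not called. Atp6v1f lost the call with the length trend removed and the animal as a block (adjusted p = 0.12). The difference for Atp6v1f was 0.22 with the length trend removed.

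The palindrome TCACGTGA, a form of the element bound by TFEB and related factors that drive lysosomal genes, was searched on both strands of the same kind of window. It was present in 0.974% of all 32851 windows and in 2.01% of the 9780 windows of tested genes. It was in 3 of 14 matched vacuolar ATPase windows (21.4%), 1 of 11 cathepsin windows and 2 of 35 lysosomal windows. The windows of Atp6v1a (chr16:44139210-44139509, minus strand), called in muscle alone, and Ctsd (chr7:142387778-142388077, minus strand), called in both tissues, are shown with the element in capitals.
Atp6v1a: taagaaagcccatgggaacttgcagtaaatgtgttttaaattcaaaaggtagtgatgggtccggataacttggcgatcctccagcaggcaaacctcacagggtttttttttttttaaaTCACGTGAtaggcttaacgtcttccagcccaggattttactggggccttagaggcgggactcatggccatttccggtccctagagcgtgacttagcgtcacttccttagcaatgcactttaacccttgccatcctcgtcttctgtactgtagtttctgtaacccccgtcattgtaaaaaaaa
Ctsd: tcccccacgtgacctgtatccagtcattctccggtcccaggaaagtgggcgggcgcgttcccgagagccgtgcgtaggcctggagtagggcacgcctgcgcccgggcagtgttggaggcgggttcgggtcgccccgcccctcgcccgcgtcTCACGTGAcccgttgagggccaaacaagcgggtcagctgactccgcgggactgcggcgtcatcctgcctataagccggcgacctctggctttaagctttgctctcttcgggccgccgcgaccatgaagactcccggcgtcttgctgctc

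Autophagy genes moved in both directions, in shares close to those of all genes. Of 29 tested, 7 were up and 7 down against WT in quadriceps, where 21.6% and 27.2% of all genes were. The tissue difference was called higher in quadriceps for 5 and lower for 6, against 13.6% and 18.7% of all genes. With the length trend removed the counts were 8 higher and 6 lower. Higher were Map1lc3a, an LC3 protein of autophagosome membranes, at 0.91, and the cargo receptor Sqstm1 (p62) at 0.67. Sqstm1 had 1097, 1061 and 1111 in KO quadriceps, against 637, 538 and 899 in WT quadriceps, and 374, 425 and 388 in KO cord, against 386, 394 and 392 in WT cord, with no overlap in muscle and full overlap in cord. Lower were the initiating kinase Ulk1 at -1.16, the cargo receptor Optn at -1.14 and the membrane protein Atg9a at -0.77. Ulk1 had 48.8, 54.8 and 58.1 in KO quadriceps, against 119, 90.2 and 166 in WT quadriceps, while its effect in cord was 0.00 ± 0.12. Of 20 regulators around TFEB, folliculin and the Rag GTPases, 4 were higher and 6 lower in quadriceps. The higher ones were subunits of the Ragulator complex, among them Lamtor4 at 0.55, and the lower ones included Mitf at -0.68, Fnip1 at -0.90 and Tsc1 at -0.69. With the length trend removed the counts were 2 higher and 5 lower. Of 13 genes of lysosome damage and galectins 4 were higher, with Lgals3, the galectin that binds ruptured lysosomes and is abundant in macrophages, the largest. Lgals3 had 91.5, 55.2 and 84.4 in KO quadriceps, against 3.87, 4.59 and 9.82 in WT quadriceps, and 8.62, 8.85 and 9.93 in KO cord, against 2.14, 1.86 and 1.09 in WT cord. It rose in both tissues without overlap, and further in muscle, with a difference of 1.47 ± 0.42 (SE, adjusted p = 0.009). With the animal as a block, Lgals3 lost the call without animal 1, 3, 6 or 8 (adjusted p up to 0.087, limma). The difference for Lamtor4 was 0.36 with the length trend removed, and for Tsc1 -0.45 with the length trend removed.

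Of 24 tested genes that make and break down glycogen, 4 rose and 10 fell in quadriceps, where 21.6% and 27.2% of all genes did, and 1 rose in cord. The tissue difference was called higher in quadriceps for 2 and lower for 10, where 13.6% and 18.7% of all genes were. After quantile normalization these counts were 4 and 9. Median effects of the 24 were -0.42 in quadriceps and -0.0235 in cord. For 5 of the 24, muscle RNA could make up over 25% of the signal in a cord library. Phkb, the beta subunit of phosphorylase kinase, had 323, 338 and 377 in KO quadriceps, against 860.3, 812 and 761 in WT quadriceps, and 40.2, 40.9 and 40.7 in KO cord, against 41.98, 47.2 and 40.3 in WT cord. The difference was -1.15 ± 0.11 (SE, adjusted p = 5.7e-08). Pygm, muscle glycogen phosphorylase, had 4722, 4462 and 5679 in KO quadriceps, against 12009, 9350.4 and 11356 in WT quadriceps, and a difference of -0.90 ± 0.19 (SE, adjusted p = 0.001), although up to 70.9% of its cord signal could be muscle RNA. Glycogen synthase Gys1 at -0.57 and the glycogen-targeting phosphatase subunit Ppp1r3c at -0.85 were lower too. The branching enzyme Gbe1 went the other way: 181, 187 and 167 in KO quadriceps, against 86.9, 107 and 77.4 in WT quadriceps, and 10.5, 10.8 and 11.3 in KO cord, against 10.3, 12.1 and 10.4 in WT cord, a difference of 0.99 ± 0.18 (SE, adjusted p = 0.00015). Phkg2, the liver and testis form of the kinase's catalytic subunit, was higher at 0.56 while the muscle form Phkg1 was lower at -0.80. Gys1 lost the call with the length trend removed and the animal as a block (adjusted p = 0.069). The difference for Pygm was -0.51 with quantile scaling, and for Gys1 -0.34 with quantile scaling.

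Among 24 genes of glucose entry and glycolysis, 3 were higher and 3 lower in quadriceps, where 13.6% and 18.7% of all genes were. After quantile normalization 6 of the 24 were higher and 1 lower. Hk1, the hexokinase of brain, had 27.5, 23.1 and 23.7 in KO quadriceps, against 7.57, 11.2 and 9.93 in WT quadriceps, and a difference of 1.30 ± 0.17 (SE, adjusted p = 3.0e-06). Eno2, the neuronal enolase, differed by 1.19 and the heart-type lactate dehydrogenase Ldhb by 0.51. Slc2a3, the neuronal glucose transporter GLUT3, had 2.24, 4.00 and 3.56 in KO quadriceps, against 24.5, 23.3 and 11.2 in WT quadriceps, and a difference of -2.15 ± 0.32 (SE, adjusted p = 2.2e-05). Hk2, the insulin-regulated hexokinase, differed by -1.08 (adjusted p = 0.038, and 0.11 with the animal as a block). Fatty acid oxidation gave 2 lower of 24, Hadha and Ech1 (adjusted p = 0.074 and 0.052 with the animal as a block, limma), with 6 lower once the length trend was removed and 0 after quantile normalization. Respiratory chain subunits gave 4 higher and 2 lower of 26, and 3 and 4 with the length trend removed. For the respiratory chain the counts were 11 and 1 after quantile normalization and 8 and 1 after median centring, so its balance of directions depended on the processing. Muscle RNA could make up over 25% of the signal in a cord library for 6 glycolysis, 4 fatty acid and 2 respiratory chain genes. Significance was lost for Ldhb when any of 9 libraries was left out (adjusted p up to 0.12) and for Hk2 when any of 6 libraries was left out (adjusted p up to 0.11), and for Hadha when any of 4 libraries was left out (adjusted p up to 0.11) and for Ech1 when any of 9 libraries was left out (adjusted p up to 0.13). Ldhb lost the call with the length trend removed (adjusted p up to 0.21). Hk2 lost the call with only the 12 libraries compared, a pseudocount of 2, quantile scaling or the length trend removed (adjusted p up to 0.18). Hadha lost the call with only the 12 libraries compared, quantile scaling or the length trend removed (adjusted p up to 0.17). Ech1 lost the call with DESeq2, edgeR, median scaling, no filter, only the 12 libraries compared or quantile scaling (adjusted p up to 0.36). The difference for Ldhb was 0.32 with the length trend removed, and for Hk2 -0.55 without WT quadriceps replicate 4, and for Hadha -0.22 with quantile scaling. The difference for Ech1 was -0.17 with quantile scaling and -0.55 with the length trend removed.

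Some genes of developing or denervated muscle had the higher effect in quadriceps, where 13.6% of all genes were called higher and 18.7% lower. Of 10 tested regeneration genes 5 were higher in quadriceps and 0 lower, and of 14 denervation and atrophy genes 7 were higher and 0 lower (4 and 9 higher with the length trend removed). Another 11 and 8 listed genes, among them Myog and embryonic myosin Myh3, were below the filter in a tissue and give no difference here. For 3 tested regeneration genes and 1 denervation gene, muscle RNA could make up over 25% of the signal in a cord library. Ncam1, a neural cell adhesion molecule that muscle re-expresses outside the synapse after denervation, had 31.7, 28.8 and 32.4 in KO quadriceps, against 4.45, 2.79 and 3.63 in WT quadriceps, and 151, 149 and 142 in KO cord, against 138, 135 and 135 in WT cord. KO and WT muscle lay far apart, and cord values lay close together without overlap, with a difference of 2.84 ± 0.19 (SE, adjusted p = 7.3e-10). Chrna1, the alpha subunit of the muscle acetylcholine receptor, had 80.01, 81.6 and 66.9 in KO quadriceps, against 15.8, 11.7 and 12.7 in WT quadriceps, and a difference of 2.65 ± 0.27 (SE, adjusted p = 1.6e-07). Gadd45a, a stress gene raised by denervation, differed by 1.95, the transcription factor Runx1 by 1.26 and acetylcholinesterase Ache by 0.77. The embryonic light chain Myl4 had 57.1, 59.2 and 85.3 in KO quadriceps, against 4.32, 4.38 and 6.33 in WT quadriceps, and the cardiac and fetal troponin T Tnnt2 23.9, 21.9 and 24.9 in KO quadriceps, against 2.83, 2.28 and 1.88 in WT quadriceps. The differences were 3.49 ± 0.29 (SE, adjusted p = 8.1e-09) for Myl4 and 2.61 ± 0.35 (SE, adjusted p = 5.6e-06) for Tnnt2. H19, a noncoding RNA of fetal muscle, differed by 2.06 (adjusted p = 0.013, and 0.064 with the animal as a block). Its cord signal could all be muscle RNA (up to 163%), so its cord level is not known. Without WT cord replicate 3 the regeneration count was 3. The difference was no longer called for Runx1 without WT quadriceps replicate 1 (adjusted p = 0.056) and for H19 without WT cord replicate 3 (adjusted p = 0.053). Runx1 lost the call with DESeq2, edgeR or only the 12 libraries compared (adjusted p up to 0.19). H19 lost the call with the length trend removed and the animal as a block (adjusted p = 0.067). The difference for Runx1 was 0.82 with edgeR. With the animal as a block, Ache lost the call without animal 3, 4, 6, 7 or 8 (adjusted p up to 0.092, limma).

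Some slow fibre genes had the higher effect in muscle, while fast fibre genes gave no called difference. Of 11 slow fibre genes 4 were higher, where 13.6% of all genes were. The count was 1 by edgeR and 2 with the length trend removed. For 3 of the 11, muscle RNA could make up over 25% of the signal in a cord library. Casq2, the calcium store protein of slow and cardiac muscle, had 89.1, 113 and 76.5 in KO quadriceps, against 15.2, 20.4 and 16.9 in WT quadriceps, and a difference of 2.40 ± 0.25 (SE, adjusted p = 1.6e-07). Troponin Tnnt1 differed by 1.82 and the calcium pump Atp2a2 by 0.83, while Tnnc1 differed by 2.14 (adjusted p = 0.048, and 0.087 with the animal as a block). All 15 fast fibre genes and all 14 skeletal muscle markers were at the carry-over level in cord, so their cord effects, with medians of -1.19 and -0.693, cannot be told apart from differing amounts of muscle RNA. In quadriceps their medians were -0.337 and -0.32, and the tissue difference was called for 0 of the 15 fast fibre genes by limma, edgeR and DESeq2, and for 0 at an unadjusted p under 0.05. The call did not hold for Tnnt1 when any of 7 libraries was left out (adjusted p up to 0.11) and for Atp2a2 when any of 11 libraries was left out (adjusted p up to 0.14), and for Tnnc1 when any of 9 libraries was left out (adjusted p up to 0.16). Tnnt1 lost the call with edgeR or the length trend removed (adjusted p up to 0.058). Atp2a2 lost the call with edgeR, no filter or only the 12 libraries compared (adjusted p up to 0.076). Tnnc1 lost the call with DESeq2, edgeR, no filter, only the 12 libraries compared or the length trend removed (adjusted p up to 0.13).

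**Figure D5:**
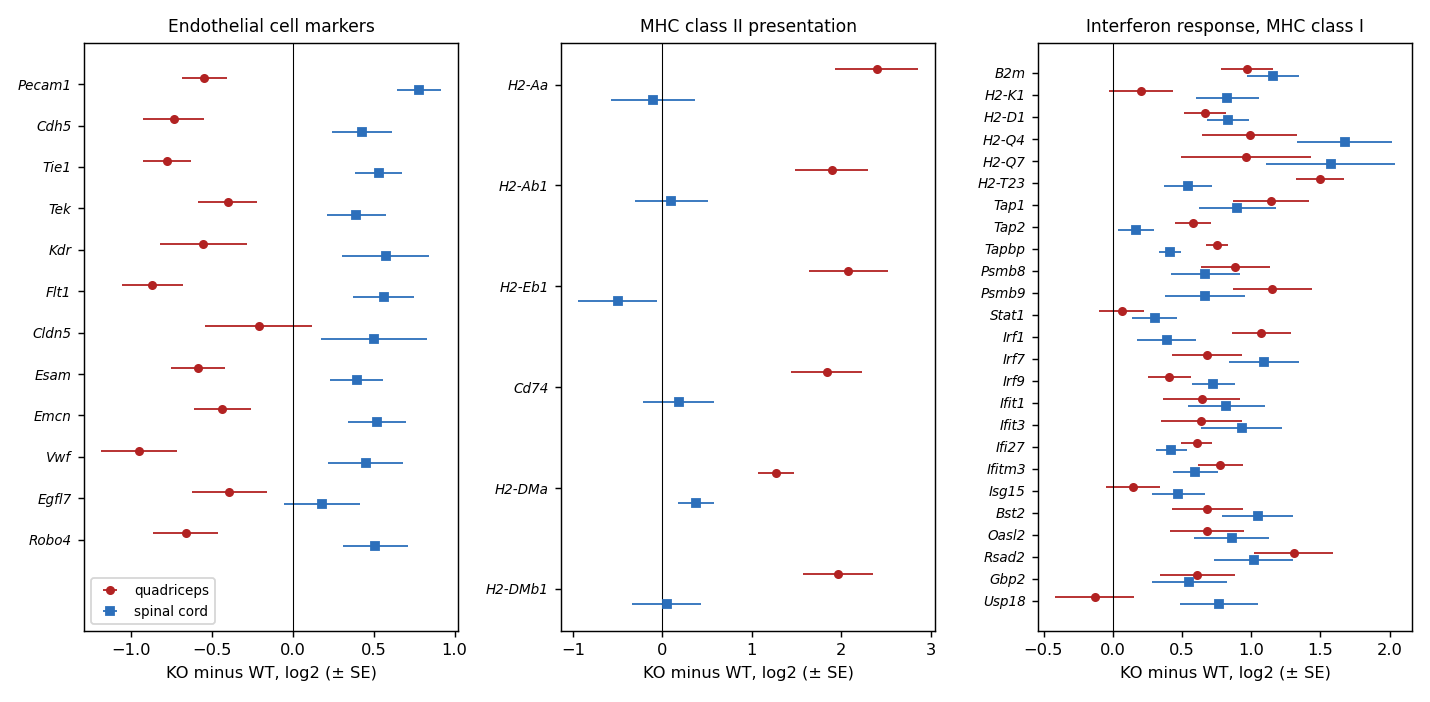
KO minus WT difference (log2 ± SE from the fit of all libraries) in quadriceps (circles) and cord (squares) for each tested gene of 3 lists. Endothelial markers lie left of 0 in quadriceps and right of 0 in cord, class II genes lie right of 0 in quadriceps, and interferon and class I genes lie mostly right of 0 in both.

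Nearly all genes of macrophages and microglia rose in muscle, and 10 of them rose in cord too. Of 24 tested, 23 were up in quadriceps and 10 in cord, all 10 in common, where 21.6% and 3.03% of all genes were up. The tissue difference was called higher in quadriceps for 4, against 13.6% of all genes. With the animal as a block it was called higher for 6, against 12.8%. The median tissue difference was 0.472, against -0.0541 over all genes. Median effects of the 24 were 1.34 and 0.813. Their summed signal was 744, 587 and 390 in KO quadriceps, against 154, 199 and 223 in WT quadriceps, and 666, 711 and 646 in KO cord, against 299, 338 and 324 in WT cord. C1qa, a chain of the complement starter C1q, had 61.8, 51.2 and 32.9 in KO quadriceps, against 14.1, 17.1 and 23.2 in WT quadriceps, and 70.1, 88.1 and 76.7 in KO cord, against 26.3, 29.7 and 32.4 in WT cord. KO exceeded WT in every library of both tissues. The effects were 1.38 ± 0.24 in quadriceps and 1.39 ± 0.24 in cord, and the difference was -0.01 ± 0.35 (SE, adjusted p = 0.98), not called. C1qb (0.82 ± 0.25 in quadriceps and 0.88 ± 0.25 in cord, with overlap of KO and WT in muscle) and the macrophage receptor Adgre1, or F4/80 (1.27 ± 0.29 in quadriceps and 1.33 ± 0.29 in cord), rose in both as well, with no difference called. Higher in quadriceps were the fractalkine receptor Cx3cr1 at 1.28, Ctss, Mpeg1 at 1.10 and the lysosomal Cd68 at 1.05. Mpeg1, a pore-forming protein of macrophages, had 29.7, 21.8 and 16.8 in KO quadriceps, against 3.22, 4.18 and 2.09 in WT quadriceps, and 43.00, 40.2 and 31.6 in KO cord, against 11.97, 12.9 and 12.5 in WT cord. Of 19 genes of disease-associated microglia 6 were higher in quadriceps, 14 were up there and 8 in cord. Itgax (CD11c) rose in both (2.48 ± 0.27 in quadriceps and 1.02 ± 0.27 in cord), with a difference of 1.46 ± 0.39 (SE, adjusted p = 0.0057). Spp1, osteopontin, had 11.2, 16.4 and 11.9 in KO quadriceps, against 1.01, 2.43 and 1.99 in WT quadriceps, and 114, 148 and 132 in KO cord, against 112, 138 and 112 in WT cord, and rose in muscle alone by the calls, with a difference of 2.48 ± 0.40 (SE, adjusted p = 4.8e-05). Of 10 homeostatic microglia genes 2 were higher in quadriceps. Of 14 complement genes 0 were called different by limma, 1 by edgeR, 1 by DESeq2 and 1 at an unadjusted p under 0.05. C4b rose in both (0.86 ± 0.33 in quadriceps and 1.62 ± 0.33 in cord). Calls were lost for Mpeg1 without WT quadriceps replicate 4 or KO quadriceps replicate 6 (adjusted p up to 0.056) and for Cd68 when any of 9 libraries was left out (adjusted p up to 0.13). Cx3cr1 lost the call with a pseudocount of 2 (adjusted p = 0.3). Cd68 lost the call with DESeq2, edgeR, no filter, only the 12 libraries compared or the length trend removed (adjusted p up to 0.11). Itgax lost the call with DESeq2 or edgeR (adjusted p up to 0.42). The difference for Cx3cr1 was 2.88 with DESeq2, 2.79 with edgeR and 0.29 with a pseudocount of 2.

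MHC class II genes, which present antigen on professional antigen-presenting cells, differed between the tissues in all tested members. All 6 tested were up in quadriceps, where 21.6% of all genes were. All 6 had the higher effect there, as had 13.6% of all genes. Median effects of the 6 were 1.93 in quadriceps and 0.0739 in cord. H2-Aa had 95.7, 93.5 and 60.9 in KO quadriceps, against 19.3, 16.5 and 10.8 in WT quadriceps, and 2.62, 4.16 and 3.04 in KO cord, against 1.77, 9.82 and 2.25 in WT cord. KO muscle stood several times above WT muscle, and in cord WT replicate 3 stood above all other cord libraries. The difference was 2.50 ± 0.66 (SE, adjusted p = 0.0054), with H2-Eb1 at 2.58, H2-DMb1 at 1.92 and the invariant chain Cd74 at 1.65. WT cord replicate 3 is also the cord library with the most muscle RNA, at 0.809%. For 0 of the 6 genes could muscle RNA make up over 25% of the signal in a cord library. The reason for the high class II values of this library was not tested. With this library left out 4 of the 6 were called, with H2-Aa at 1.82 (adjusted p = 0.02) and H2-Eb1 at 1.98 (adjusted p = 0.0097, limma). No difference was called for Cd74 without KO quadriceps replicate 6 or WT cord replicate 3 (adjusted p up to 0.094). The difference for Cd74 was 1.05 without WT cord replicate 3.

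Many interferon response and MHC class I genes rose in both tissues, with few differences between them. Of 25 tested, 17 were up in quadriceps and 11 in cord, where 21.6% and 3.03% of all genes were, and 10 were up in both. The tissue difference was called for 2, both higher in quadriceps, against 32.3% of all genes in either direction. With the animal as a block 1 was higher and 1 lower. Median effects of the 25 were 0.681 in quadriceps and 0.765 in cord. B2m, the light chain of class I molecules, had 191, 178 and 198 in KO quadriceps, against 81.02, 103 and 107 in WT quadriceps, and 173, 164 and 199 in KO cord, against 68.5, 92.1 and 79.4 in WT cord. KO exceeded WT without overlap in both tissues, with effects of 0.97 ± 0.19 in quadriceps and 1.16 ± 0.19 in cord and a difference of -0.19 ± 0.27 (SE, adjusted p = 0.63). H2-D1 rose by 0.67 ± 0.15 in quadriceps and 0.83 ± 0.15 in cord and Bst2 (tetherin) by 0.68 ± 0.26 in quadriceps and 1.05 ± 0.26 in cord. H2-T23, a nonclassical class I gene, was higher in quadriceps by 0.95 ± 0.25 (SE, adjusted p = 0.0047), and Tapbp (tapasin) by 0.34 (adjusted p = 0.025, and 0.073 with the animal as a block). Class I genes are near copies of each other, so reads of single members such as H2-Q4 and H2-Q7 are uncertain. Significance was lost for Tapbp when any of 3 libraries was left out (adjusted p up to 0.084). Tapbp lost the call with the length trend removed and the animal as a block (adjusted p = 0.089).

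Glial and neuronal lists held some called differences, where 13.6% of all genes were called higher and 18.7% lower in quadriceps. Gfap, the intermediate filament of astrocytes, had 2827, 2719 and 2976 in KO cord, against 1184, 1154 and 904 in WT cord, with no overlap. In quadriceps its signal was low, with 0.518, 1.18 and 1.11 in KO quadriceps, against 0.227, 0.589 and 0.609 in WT quadriceps. The effects were 0.55 ± 0.29 in quadriceps and 1.40 ± 0.29 in cord, and the difference of -0.86 ± 0.42 (SE, adjusted p = 0.12) was not called. Vim, an intermediate filament of reactive astrocytes and of many other cells, had 205, 169 and 148 in KO quadriceps, against 95, 130.4 and 139.6 in WT quadriceps, and 134, 128 and 124 in KO cord, against 48.9, 75.6 and 43.3 in WT cord. It rose in both tissues, and further in cord, with a difference of -0.72 (adjusted p = 0.044, and 0.081 with the animal as a block). Of 13 astrocyte markers 1 was higher in quadriceps (Sox9, block adjusted p = 0.053, limma), and 3 were lower, Aqp4, Vim and the bicarbonate transporter Slc4a4 (-0.81). Of 9 oligodendrocyte and myelin markers 2 were higher, Cspg4 at 0.97 and Cnp at 0.44. Of 9 Schwann cell markers 0 were called by limma, edgeR and DESeq2, and 0 at an unadjusted p under 0.05. Only 5 of 16 neuronal and 5 of 11 motor neuron markers passed the filter in muscle, so Chat, Isl1 and Mnx1 give no difference here. Of the 5 neuronal markers 1 was higher and 1 lower in quadriceps. Of the 5 motor neuron markers 1 was higher, and 0 with the animal as a block. Summed in cord, the 11 motor neuron markers had 1060, 1060 and 1220 in KO mice, against 1010, 1050 and 1170 in WT mice, ranges that overlap. The difference was no longer called for Vim when any of 9 libraries was left out (adjusted p up to 0.13) and for Sox9 when any of 4 libraries was left out (adjusted p up to 0.089), and for Cnp when any of 5 libraries was left out (adjusted p up to 0.093). Gfap was called with only the 12 libraries compared or a pseudocount of 2 (adjusted p down to 0.00042). Vim lost the call with DESeq2, edgeR, median scaling, no filter, only the 12 libraries compared, quantile scaling or the length trend removed and the animal as a block (adjusted p up to 0.15). Sox9 and Cnp lost the call with only the 12 libraries compared (adjusted p up to 0.12). Slc4a4 lost the call with the length trend removed (adjusted p up to 0.099). The difference for Slc4a4 was -0.53 without WT quadriceps replicate 4.

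Most endothelial markers fell in KO muscle, and 2 of them were higher in KO cord. Of 12 tested, the tissue difference was called lower in quadriceps for 10 and higher for 0, where 18.7% and 13.6% of all genes were. Against WT, 8 were down in quadriceps, where 27.2% of all genes were. In cord 2 were up, Pecam1 and Tie1, where 3.03% of all genes were. Median effects of the 12 were -0.57 in quadriceps and 0.505 in cord. With the length trend removed 9 were lower, and 11 with the animal as a block. Their summed signal was 233, 317 and 260 in KO quadriceps, against 385, 415 and 461 in WT quadriceps, and 158, 145 and 143 in KO cord, against 107, 110 and 105 in WT cord. The KO sums lay below every WT sum in muscle and above every WT sum in cord. Pecam1 (CD31), the adhesion molecule of endothelial junctions, had 36.4, 46.5 and 38.6 in KO quadriceps, against 54.8, 57.1 and 66.2 in WT quadriceps, and 9.63, 9.09 and 8.42 in KO cord, against 4.88, 4.34 and 6.09 in WT cord, a difference of -1.33 ± 0.20 (SE, adjusted p = 1.8e-05). Tie1, an endothelial receptor kinase, had 17.2, 29.02 and 20.5 in KO quadriceps, against 36.5, 35.8 and 40.5 in WT quadriceps, and 5.95, 7.20 and 5.80 in KO cord, against 5.55, 3.44 and 3.86 in WT cord, a difference of -1.31 ± 0.21 (SE, adjusted p = 4.6e-05). Flt1, a VEGF receptor, differed by -1.43, von Willebrand factor Vwf by -1.40 and VE-cadherin Cdh5 by -1.16. Blood cell markers, mostly globins, ranged widely within groups. They summed to 26.8, 852 and 165 in KO quadriceps, against 77.5, 172 and 518 in WT quadriceps, and 202, 969 and 259 in KO cord, against 213, 217 and 120 in WT cord. Of 5 tested blood markers 0 were called by limma, edgeR and DESeq2, and 0 at an unadjusted p under 0.05. Their part in the endothelial result was not tested.

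Matrix genes moved both ways. Of 25 tested, the tissue difference was called higher in quadriceps for 5 and lower for 3, where 13.6% and 18.7% of all genes were. Against WT, 8 were up in quadriceps and 2 in cord, where 21.6% and 3.03% of all genes were. Periostin (Postn), a matrix protein of injured tissue, had 27.9, 84.3 and 34.8 in KO quadriceps, against 8.16, 12.02 and 8.81 in WT quadriceps, and a difference of 2.02 ± 0.42 (SE, adjusted p = 0.00071). The small proteoglycans lumican (Lum) at 1.95 and biglycan (Bgn) at 1.11 were higher as well, and lost the call without WT cord replicate 3 (adjusted p = 0.062 and 0.055, limma). Col4a2, a basement membrane collagen, had 90.02, 124 and 92.3 in KO quadriceps, against 112, 111 and 152 in WT quadriceps, and 16.9, 16.03 and 20.4 in KO cord, against 8.62, 9.18 and 7.79 in WT cord. KO and WT overlapped in muscle and not in cord, and the difference was -1.30 ± 0.22 (SE, adjusted p = 6.6e-05). Markers of fibroblasts and meninges, which make much of the matrix, summed to 2630, 2520 and 1510 in KO quadriceps, against 1580, 1810 and 1390 in WT quadriceps, and 514, 394 and 345 in KO cord, against 284, 547 and 353 in WT cord. Of 12 tested, 3 were higher in quadriceps, and their part in the matrix result was not tested. Col4a1, the partner of Col4a2, differed by -0.89 and Col5a1 by -1.13. Of 15 TGF-beta genes 1 was higher and 5 lower in quadriceps, and 2 and 5 with the length trend removed. Ltbp1, the latent TGF-beta binding protein related to Ltbp4, went the other way, with 76.3, 63.9 and 58.3 in KO quadriceps, against 17.00, 17.5 and 18.03 in WT quadriceps, and 9.56, 8.34 and 8.72 in KO cord, against 8.73, 10.4 and 8.70 in WT cord, a difference of 1.94 ± 0.21 (SE, adjusted p = 2.5e-07). Tgfbr1, the type I receptor, moved in opposite directions, -0.42 ± 0.09 in quadriceps and 0.54 ± 0.09 in cord, with a difference of -0.96 ± 0.12 (SE, adjusted p = 3.6e-06). Ltbp3 at -0.62 and the signal transducers Smad3 at -0.78 and Smad7 at -0.93 were lower. The call did not hold for Col4a1 without WT cord replicate 1 (adjusted p = 0.052) and for Col5a1 when any of 4 libraries was left out (adjusted p up to 0.071). Lum and Bgn lost the call with only the 12 libraries compared (adjusted p up to 0.073). Col4a1 lost the call with quantile scaling or the length trend removed and the animal as a block (adjusted p up to 0.084). Col5a1 lost the call with only the 12 libraries compared, a pseudocount of 2 or the length trend removed (adjusted p up to 0.14). Ltbp3 lost the call with the length trend removed and the animal as a block (adjusted p = 0.059).

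Many ribosomal and proteasome genes, which are short, were called higher in quadriceps, and fewer with the length trend removed. Over all genes 13.6% were called higher. Of 28 cytosolic ribosomal protein genes 19 were higher and 0 lower, with medians of 0.308 in quadriceps and -0.129 in cord. Their median transcript length was 1124 bases, against 3389 for all genes with a length. With the length trend removed 12 were higher, and 8 with the animal as a block added. Rpl3 had 56.8, 50.02 and 52.4 in KO quadriceps, against 27.4, 18.6 and 26.4 in WT quadriceps, and 195, 220.3 and 194 in KO cord, against 228, 232 and 210.4 in WT cord, a difference of 1.28 ± 0.25 (SE, adjusted p = 0.0004). Ribosomal genes have many processed copies in the genome, which makes single values uncertain. Of 22 proteasome subunits (median length 1566 bases) 10 were higher and 0 lower, 4 with the length trend removed and 2 with the block added. Of 13170 genes with a length, 1866 were higher with the trend removed and 1774 with the block added. The proteasome counts then lay near the share of all genes. The largest was Psma5 at 0.58, followed by Psmc1 at 0.50. Psma5 lost the call with the length trend removed and the animal as a block (adjusted p = 0.059).

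Clock genes and cholesterol synthesis genes were lower in quadriceps where called. Of 16 clock genes 5 were lower and 0 higher, where 18.7% and 13.6% of all genes were. With the length trend removed 3 of the 16 were lower. Arntl (BMAL1), the activator of the clock, had 15.2, 16.9 and 16.7 in KO quadriceps, against 55.9, 56.6 and 75.1 in WT quadriceps, and 7.96, 9.75 and 9.64 in KO cord, against 11.5, 11.3 and 11.3 in WT cord, a difference of -1.59 ± 0.46 (SE, adjusted p = 0.011). Its targets Per2 and Dbp stood at 1.46 ± 0.48 and 1.24 ± 0.50 in quadriceps, with differences that missed the threshold (adjusted p = 0.22 and 0.39) and passed it with the animal as a block (adjusted p = 0.017 and 0.037, limma). With that block 5 clock genes were higher and 6 lower. The labels used here do not give the time of day at collection. Of 16 cholesterol synthesis genes 5 were lower, with Fdft1, squalene synthase, at -0.81 ± 0.12 (SE, adjusted p = 1.3e-05) and Sc5d at -0.85 ± 0.17 (SE, adjusted p = 0.00045). Of these 5, 3 held with the block. Per2 was called with only the 12 libraries compared or the length trend removed and the animal as a block (adjusted p down to 0.0085). Dbp was called with only the 12 libraries compared (adjusted p = 0.026).

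Other stress and signalling lists moved in part, where 13.6% of all genes were called higher and 18.7% lower in quadriceps. Of 12 integrated stress response genes 3 were higher, the amino acid synthesis enzymes Psat1 at 1.39, Phgdh at 1.09 and Asns at 1.09, while the transcription factor Atf5 was lower at -1.41. In that list 2 were lower with the length trend removed and 3 by edgeR or DESeq2. Psat1 had 8.25, 6.92 and 8.60 in KO quadriceps, against 2.31, 3.36 and 2.67 in WT quadriceps, and 179.8, 179 and 189 in KO cord, against 187, 168 and 203 in WT cord. Of 15 immediate-early genes Egr3 (2.69) and Arc (2.09) were higher, and Fosb (-1.73) and Nr4a1 (-1.04) lower, with 4 lower by DESeq2. Of 12 cell cycle inhibitors and p53 targets the death receptor Eda2r (1.43) and Gadd45a were higher and Ccng1 (-0.87) was lower, with 1 higher by edgeR or DESeq2. Of 11 proliferation genes 4 were higher, while Mki67 rose in both tissues (1.51 ± 0.29 in quadriceps and 1.05 ± 0.29 in cord). Of 15 heat shock genes 0 were called by limma, edgeR and DESeq2, and 0 at an unadjusted p under 0.05. Of 16 tested genes that neighbour Gaa on chromosome 11, 3 were higher and 5 lower, and 3 and 3 with the length trend removed. Slc26a11, an anion transporter of the sulfate family, was called in both tissues (1.77 ± 0.13 in quadriceps and 0.77 ± 0.13 in cord), with a difference of 1.00 ± 0.19 (SE, adjusted p = 0.00022). Calls were lost for Asns when any of 6 libraries was left out (adjusted p up to 0.12) and for Nr4a1 without KO quadriceps replicate 6 (adjusted p = 0.058). Asns lost the call with only the 12 libraries compared or quantile scaling (adjusted p up to 0.085). Nr4a1 lost the call with quantile scaling (adjusted p = 0.0504). Eda2r lost the call with DESeq2 or edgeR (adjusted p up to 0.17). The difference for Egr3 was 1.75 with a pseudocount of 2, and for Eda2r 0.93 with edgeR, and for Slc26a11 0.67 with a pseudocount of 2.

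Of the 80 genes called in opposite directions, those with the smallest adjusted p were Chd7, Epb41, Magt1, Sema4d, Esd and Atp11a. Chd7, a chromatin remodeller, had 18.7, 20.6 and 23.3 in KO quadriceps, against 57.8, 55.6 and 64.5 in WT quadriceps, and 13.7, 13.6 and 12.5 in KO cord, against 10.99, 9.21 and 9.52 in WT cord, a difference of -1.90 ± 0.16 (SE, adjusted p = 1.2e-08). Sema4d, a semaphorin of oligodendrocytes and lymphocytes, had 40.8, 40.5 and 41.97 in KO quadriceps, against 79.98, 65.6 and 72.5 in WT quadriceps, and 37.4, 30.4 and 29.6 in KO cord, against 21.05, 21.03 and 22.1 in WT cord, a difference of -1.39 ± 0.13 (SE, adjusted p = 2.9e-08). Esd, esterase D, went the other way, with 157, 128 and 132 in KO quadriceps, against 45.3, 51.4 and 60.3 in WT quadriceps, and 28.7, 33.4 and 32.5 in KO cord, against 40.2, 48.6 and 51.9 in WT cord, a difference of 1.97 ± 0.19 (SE, adjusted p = 5.7e-08). KO and WT did not overlap in either tissue for any of these 3. The 67 genes down in quadriceps and up in cord had a median transcript length of 4635 bases. With the length trend removed 65 genes were called in opposite directions.

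Genes with the larger effect in cord were fewer. Neat1, the long noncoding RNA that builds paraspeckles, had 1771, 1994 and 2564 in KO quadriceps, against 1803, 1921 and 1575 in WT quadriceps, and 45.6, 35.7 and 50.7 in KO cord, against 229.8, 250.2 and 191 in WT cord. KO and WT muscle overlapped, while KO cord stood far below WT cord, and the difference was 2.58 ± 0.43 (SE, adjusted p = 6.5e-05). On the B6;129 background it was 0.15 (adjusted p = 0.84), and the test between backgrounds gave 2.44 ± 0.60 (SE, adjusted p = 0.098), with a block adjusted p of 0.0093. Magt1, a magnesium transporter and oligosaccharyltransferase subunit, had 36.4, 40.3 and 38.3 in KO quadriceps, against 45.5, 49.02 and 54.4 in WT quadriceps, and 42.1, 38.95 and 41.3 in KO cord, against 23.5, 21.95 and 21.5 in WT cord, a difference of -1.22 ± 0.11 (SE, adjusted p = 2.9e-08). Arhgef1, an exchange factor for RhoA in blood cells, had 43.5, 45.9 and 42.7 in KO quadriceps, against 40.01, 43.7 and 38.4 in WT quadriceps, and 39.7, 35.8 and 41.96 in KO cord, against 19.7, 21.6 and 18.8 in WT cord, a difference of -0.83 ± 0.11 (SE, adjusted p = 3.4e-06). Zfp979, a zinc finger gene, rose in cord alone (0.05 ± 0.22 in quadriceps and 1.90 ± 0.22 in cord), as did Casp12, a caspase of the endoplasmic reticulum in mice (-0.21 ± 0.15 in quadriceps and 1.21 ± 0.15 in cord). Atp11a, a phospholipid flippase, was among both these genes and the opposite ones (-0.47 ± 0.08 in quadriceps and 0.61 ± 0.08 in cord). Hp1bp3 fell more in cord (-0.18 ± 0.06 in quadriceps and -0.53 ± 0.06 in cord). Col16a1 rose by 0.87 ± 0.16 in quadriceps and 1.49 ± 0.16 in cord and Dhrs1 by 0.30 ± 0.08 in quadriceps and 0.60 ± 0.08 in cord. Their differences lost the call with the animal as a block (adjusted p = 0.12 and 0.054, limma). Tpm3-rs7, a retrotransposed copy of Tpm3 whose reads cannot be told from its parent's with certainty, rose by 3.99 ± 0.24 in quadriceps and 5.20 ± 0.24 in cord. Its difference of -1.21 was not called by edgeR or DESeq2. No difference was called for Col16a1 when any of 6 libraries was left out (adjusted p up to 0.13) and for Dhrs1 when any of 5 libraries was left out (adjusted p up to 0.13). Col16a1 lost the call with DESeq2, edgeR, only the 12 libraries compared or the length trend removed (adjusted p up to 0.22). Dhrs1 lost the call with DESeq2, edgeR, median scaling, only the 12 libraries compared, quantile scaling or the length trend removed and the animal as a block (adjusted p up to 0.16).

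Beside Gaa, Lgals3, Tpm3-rs7 and the macrophage genes Mpeg1 and C1qa, the 10 largest effects shared by both tissues were those of Sfi1, Kif24, Mid1, Fggy and Myo1f. Sfi1, a centrosome protein, had 99.8, 136 and 78.8 in KO quadriceps, against 13.2, 14.1 and 13.9 in WT quadriceps, and 84.01, 86.2 and 62.6 in KO cord, against 10.95, 9.79 and 10.5 in WT cord, a difference of 0.03 ± 0.42 (SE, adjusted p = 0.97). Kif24, a kinesin of centrioles, had 10.7, 10.6 and 6.98 in KO quadriceps, against 0.942, 2.33 and 1.30 in WT quadriceps, and 13.6, 8.64 and 12.00 in KO cord, against 1.502, 1.92 and 0.928 in WT cord. Mid1, an X-linked ubiquitin ligase, fell in both, with effects of -2.35 ± 0.43 in quadriceps and -2.0 ± 0.43 in cord, as did Fggy, a carbohydrate kinase, with effects of -1.42 ± 0.41 in quadriceps and -2.03 ± 0.41 in cord. The difference of 0.61 ± 0.58 (SE, adjusted p = 0.46) for Fggy was not called, and was with the animal as a block (adjusted p = 0.021). Myo1f, a myosin of immune cells, rose by 1.52 ± 0.27 in quadriceps and 1.42 ± 0.27 in cord. KO and WT did not overlap in either tissue for any of these 5. Of the 1062 tested genes on chromosome 11, which carries Gaa, 22 (2.07%) were called in both tissues in the same direction, against 1.99% of all genes. Chromosomes 4 and 14 had 3.49% and 3.3%. Fggy was called with the length trend removed and the animal as a block (adjusted p = 0.014).

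On the B6;129 background the same difference of differences was called for 3346 genes (25.4%). In both backgrounds 2319 genes were called in the same direction, 54.5% of those of the mixed background and 69.3% of those of B6;129. The values correlated across genes at r = 0.745, from libraries of different animals. Mt3 differed by 6.82, Lgmn by 1.88, Atp6v1a by 1.05, Ncam1 by 2.80 and Aqp4 by -4.36 on B6;129. Neat1, at 2.58 on the mixed background, was at 0.15 there, and Tpm3-rs7, at -1.21, was at 0.01. Ltbp4 differed by -0.70 there (adjusted p = 0.027), and the 2 backgrounds were not called different for it. A test of the backgrounds against each other (mixed minus B6;129) called 39 genes (0.296%), 5 higher and 34 lower on the mixed background. It called 6 (0.0455%) with the animal as a block, and 20 with the length trend removed. Of the 39, the 38 with an annotated length had a median transcript length of 4500 bases and a median GC content of 57.2%, against 3389 bases and 49.7% over all genes. Among the 6 with the block were Neat1 (block adjusted p = 0.0093), Arhgef1 (block adjusted p = 0.014) and Fosb (block adjusted p = 0.00083, limma). The columns of the 2 backgrounds carry different prefixes, and the background and the series of samples cannot be told apart.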

How the data were processed

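RNA-seq was done on quadriceps and spinal cord from the same animals (polyA RNA, NEBNext Ultra, single-end reads of 61 bases, per the labels). The authors deposited 1 table of normalized counts, here called signal, with no length scaling. Every value was (reads + 0.5) over a scaled library size, and whole reads were recovered for all values within 0.001. The submitters' processing notes name cutadapt, RSEM, edgeR, limma and GRCm38. Versions, annotation and strandedness are not given in the sources used here.

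Testing covered genes that reached a signal of 1 in 3 or more libraries of quadriceps and likewise of cord (limma 3.58.1, R 4.3.3, trended variance) on log2(signal + 0.5). All 30 libraries in 10 groups, including treated KO mice, shared a spread per gene. The difference (KO minus WT in quadriceps) minus (KO minus WT in cord) was called at an adjusted p under 0.05. Alternatives were a pseudocount of 2, a filter of 4 and none, median and quantile scaling, fewer libraries, a spread per tissue, an animal block, edgeR 4.0.16 and DESeq2 1.42.0 on recovered reads, and libraries left out in turn. Removing muscle carry-over genes and the length trend were chosen after seeing the data. For single genes an exact permutation test of 3 against 3 cannot go below p = 0.1, so overlap of ranges is given.

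Pairing comes from the sample pair label, and each of 12 untreated animals' libraries correlated best with its own partner (r = 0.109 to 0.354). Whether replicates came from separate litters is not stated. Named genes were the largest differences in each direction, opposite, cord-led and shared effects, the leading members of each list, and members named by role. The members and lists were chosen with earlier results of these data known. Lengths came from GENCODE vM21, which matched 17397 of 17420 IDs. Genes with near-identical copies, and overlapping antisense genes, are uncertain. Some genes that the rule names are not reported here.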

Additional observations from a re-analysis of the deposited data

Results flagged for a closer look

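The KO effect differed between quadriceps and cord for 4255 of 13187 genes, tested as the difference of differences (limma, adjusted p under 0.05). The muscle-minus-cord difference itself differed between the mixed background and B6;129 for 39 genes, and 5 genes named here were among them. Magt1 stood at -0.74 ± 0.16 (SE, adjusted p = 0.033) for mixed background minus B6;129, and Sema4d at -1.16 ± 0.18 (SE, adjusted p = 0.0023). Arhgef1 stood at -1.21 ± 0.15 (SE, adjusted p = 0.00059) and Col4a2 at -1.52 ± 0.30 (SE, adjusted p = 0.02). Fosb stood at -3.63 ± 0.56 (SE, adjusted p = 0.0023), with a difference between tissues of -1.73 on the mixed background and of 1.90 on B6;129. With the animal as a block the adjusted p was 0.14 for Magt1, 0.083 for Sema4d, 0.014 for Arhgef1, 0.14 for Col4a2 and 0.00083 for Fosb (limma). Groups of 3 were too small for a search for outlying samples.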

How the results depend on the processing

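Quadriceps and cord libraries of a number come from 1 animal, and the test of per-animal ratios (replicate block) called 4110 genes for the tissue difference and 6 for the difference between backgrounds. Leaving out single libraries gave 3609 to 4303 genes for the tissue difference, 5443 to 6092 for quadriceps and 185 to 498 for cord. Leaving out an animal under the block gave 2718 (animal 6) to 3945. The quadriceps count was 3847 with the libraries of the compared groups alone. The cord count was 1781 with a spread per gene and tissue and 1269 with DESeq2. The 39 genes differing between backgrounds became 23 with libraries centred on their median, 98 with DESeq2, and 20 without and 6 with the block once the length trend was removed. The causes of these shifts were not tested. Of 178 named genes called for the tissue difference, 110 held the call and direction in every alternative run, 16 lost it with the block and 39 lost it without at least 1 library. Calls lost when an animal was left out under the block are given above for few genes only. No direction of a named gene or count was reversed. No floor at 3 reads was set in the tests, so signals worth under 3 reads entered them and are uncertain. Groups of 3 limit the precision.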
